A study of Homo sapiens with 30 samples.

Results

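The clustered protocadherins are cadherin-type adhesion proteins encoded by 3 neighbouring gene clusters, alpha, beta and gamma, on the long arm of chromosome 5. All rows of the RNA count tables whose symbol begins with PCDHA, PCDHB or PCDHG followed by a number, A, B or C were taken, which gave 57 rows. The 4 pseudogenes among them were left out, so the set held 53 of the 27348 genes counted in every library. These were 15 alpha, 16 beta and 22 gamma members. The gamma members comprised 12 of the A type, 7 of the B type and PCDHGC3, PCDHGC4 and PCDHGC5, which together with PCDHAC1 and PCDHAC2 form the 5 C-type genes.

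Each alpha and gamma gene has its own promoter and first exon, which is spliced to exons shared by the whole cluster, whereas each beta gene is a single exon with no shared part. A neuron switches on a few variable promoters out of the many, and the proteins on its surface recognise identical proteins on other cells, so that a neuron can tell its own branches from those of others. The variable promoters are contacted through CTCF and cohesin by distant enhancers and are kept silent by DNA methylation, while several C-type genes are switched on more uniformly. Embryonic stem cells express some members before any neuron has formed.

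The RNA came from RUES2, an established human embryonic stem cell line, kept in TeSR E7 medium with a ROCK inhibitor, which all groups shared. At 24 h the groups were untreated cells (E7), cells given the BET bromodomain inhibitor CPI-203 at 1 µM (E7_CPI), Wnt3a at 100 ng/mL (WNT), or Wnt3a and CPI-203 together (WNT_CPI). At 48 h they were cells given Activin A at 10 ng/mL on day 2 only (E7_ACT), Wnt3a on day 1 and no Activin A on day 2 (WNT_E7), Wnt3a and then Activin A (WNT_ACT), or Wnt3a with CPI-203 and then Activin A (WNT_CPI_ACT). Each of the 8 groups had 2 libraries. Whether the libraries of a group were separate cultures is not stated in the labels. A p-value here therefore speaks only of the spread among these libraries, which may be technical.

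Library totals lay between 36268324 and 43347733 counts. The 8 pluripotency markers (POU5F1, NANOG, SOX2, LIN28A, DPPA4, TDGF1, SALL4 and PODXL) were detected in every library, at a summed 4866 to 9236 CPM (counts scaled to a common library total after TMM normalization). The E7_CPI column of replicate 1 was out of step with the gene names beside it and was lined up with the genes of the replicate 2 table, where its Spearman correlation with E7_CPI replicate 2 was 0.986. These 2 libraries differed by more than sampling alone, but far less than the replicates of any other group: the median chi-square per gene was 1.06, against 12.8 to 25.8 in the other 7 groups and 0.455 expected from sampling. Counts and medians of E7_CPI vs E7 over the members are therefore given with both libraries and with replicate 2 alone, and the library values show both.

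All 53 members passed the filter on low counts and were tested. Their counts were modest, and 27 of them fell below 10 counts in at least 1 library. PCDHB7, PCDHGA5, PCDHGA7 and PCDHGB3 had 0 counts in at least 1 library, and PCDHGA7 had no more than 26 in any. In WNT_CPI replicate 2, PCDHA8 had 2 counts and PCDHA11 had 261, so reads of the exons that the alpha genes share were not credited to every alpha gene. How the counting treated such reads was not given in the sources used here, and reads of the shared alpha and gamma exons may be missing from these counts.

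Members of a cluster share short stretches of promoter sequence. RefSeq windows of GRCh38.p14 from 250 bases before to 50 bases after the start of transcription were matched by gene identifier for 47 of the 53 members. Stretches of 40 bases are shown for members that changed with CPI-203 and for gamma members not called at 24 h. Capitals mark the CGCT letters of the cluster's motif, or in PCDHGB7 the letters in their place. PCDHAC1 lacks that motif, and its capitals mark the first CGCT of its window, not a counterpart of the motif. All stretches are from the plus strand and read 5′ to 3′.
PCDHA4, chr5:140806975-140807014: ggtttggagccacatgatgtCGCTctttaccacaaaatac
PCDHA6, chr5:140827893-140827932: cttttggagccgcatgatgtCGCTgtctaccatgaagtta
PCDHAC1, chr5:140926216-140926255: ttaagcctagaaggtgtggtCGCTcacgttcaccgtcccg
PCDHB2, chr5:141094540-141094579: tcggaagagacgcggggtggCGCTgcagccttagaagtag
PCDHB14, chr5:141223259-141223298: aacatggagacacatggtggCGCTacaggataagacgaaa
PCDHB15, chr5:141245310-141245349: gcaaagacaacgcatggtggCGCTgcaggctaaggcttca
PCDHGB2, chr5:141359917-141359956: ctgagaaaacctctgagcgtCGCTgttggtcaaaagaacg
PCDHGA9, chr5:141402710-141402749: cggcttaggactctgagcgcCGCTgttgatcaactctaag
PCDHGB6, chr5:141407920-141407959: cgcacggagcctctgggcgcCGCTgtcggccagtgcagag
PCDHGB7, chr5:141417579-141417618: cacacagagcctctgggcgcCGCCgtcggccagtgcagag
PCDHGC3, chr5:141475876-141475915: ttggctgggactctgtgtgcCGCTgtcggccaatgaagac
PCDHGC4, chr5:141484948-141484987: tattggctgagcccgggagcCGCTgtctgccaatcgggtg

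The letters around CGCT were searched in 3 forms on both strands, all chosen after the promoters had been read. Genes with a window were counted, each once if any of its windows matched, and 5 members had 2 windows. GATGTCGCT was found for 9 of 13 alpha genes (69.2%) and for 0.128% of the 27305 genes with a window. GGTGGCGCT was found for 13 of 14 beta genes (92.9%), with PCDHB1 the one without it, and for 0.619% of all these genes. GNGNCGCTG was found for 18 of 20 gamma genes (90%), with PCDHGB3 and PCDHGB7 the ones without it. That last form is loose, overlaps the beta form, and was also found for 12 of 14 beta genes and 12.2% of all genes with a window. The alpha genes without GATGTCGCT were PCDHA9, PCDHA11, PCDHAC1 and PCDHAC2, so PCDHAC1 has CGCT in another setting. These matches describe letters only.

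CPI-203 at 24 h went with a lower summed level of the alpha and beta clusters. The beta members summed to 89.4 and 65.7 CPM in the 2 E7 libraries and to 19.9 and 21.6 in E7_CPI. With Wnt3a they summed to 88.3 and 66.0 in WNT and to 38.8 and 20.8 in WNT_CPI. With and without Wnt3a the beta sums of the CPI-203 libraries lay below those of their controls. The alpha members summed to 68.5 and 57.8 CPM in E7, 37.4 and 35.7 in E7_CPI, 64.2 and 54.7 in WNT, and 42.0 and 33.3 in WNT_CPI. The gamma members moved less, from 55.5 and 53.5 in E7 to 42.6 and 44.1 in E7_CPI, and from 74.6 and 82.8 in WNT to 69.5 and 56.2 in WNT_CPI. In bulk RNA, fewer cells expressing a gene and less RNA per cell cannot be told apart.

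**Figure D1:**
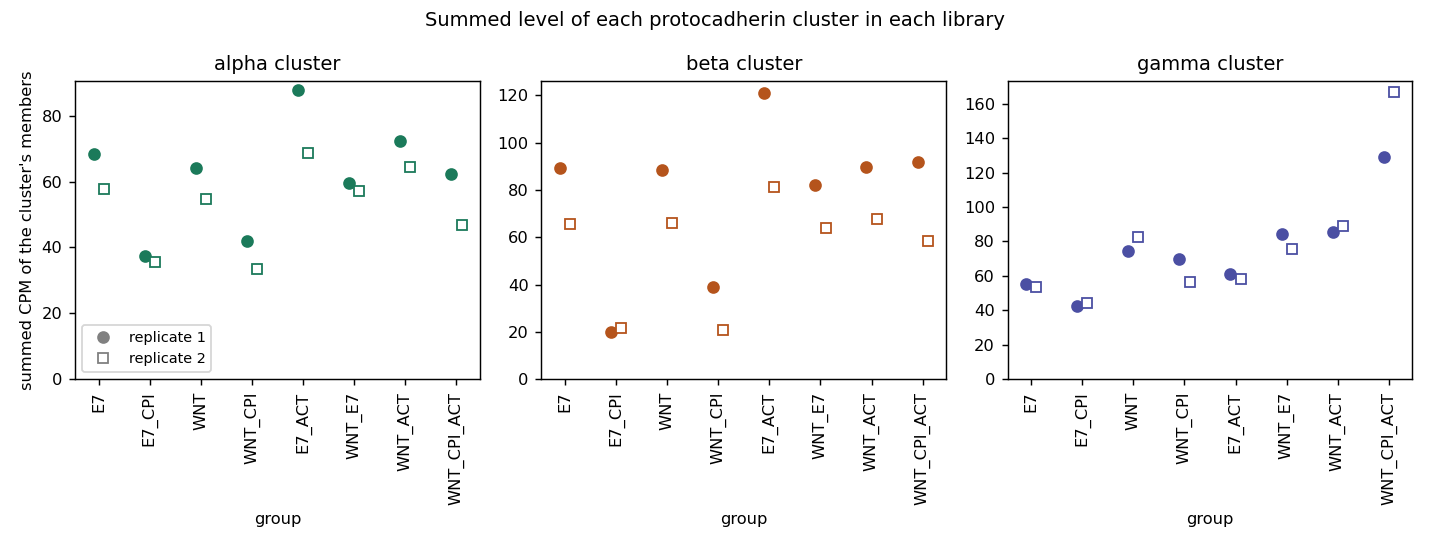
Summed CPM of the 15 alpha, 16 beta and 22 gamma members (vertical axis) in each library of the 8 groups (horizontal axis), with replicate 1 as filled circles and replicate 2 as open squares. Among the beta sums those of E7_CPI (19.9 and 21.6) and WNT_CPI (38.8 and 20.8) are the lowest, and among the gamma sums those of WNT_CPI_ACT (129 and 167) are the highest.

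At 48 h, a day after CPI-203, the beta sums of WNT_CPI_ACT overlapped those of WNT_ACT, the alpha sums lay below and the gamma sums above. The beta members summed to 91.9 and 58.6 CPM in WNT_CPI_ACT and to 89.8 and 67.6 in WNT_ACT. The alpha members summed to 62.4 and 46.7 against 72.3 and 64.5. The gamma members summed to 129 and 167 in WNT_CPI_ACT and to 85.7 and 89.1 in WNT_ACT, with no overlap. The gamma genes did not all go that way: the 8 from PCDHGB6 to PCDHGC5 summed to 117 and 154 against 65.2 and 74.3, while the 14 from PCDHGA1 to PCDHGA9 summed to 12.6 and 12.8 against 20.5 and 14.8, a split made after the values were seen. Where CPI-203 had not been given, the 48 h groups E7_ACT and WNT_E7 summed to 60.9 and 58.4, and to 84.5 and 75.6 for gamma.

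The comparison of WNT_CPI with WNT asks what CPI-203 changed beside Wnt3a, in libraries other than those of E7_CPI. Of the 53 members, 11 fell (20.8%) and 1, PCDHAC1, rose (1.89%), by edgeR's quasi-likelihood test with a Benjamini-Hochberg adjusted p under 0.05 over all 17355 genes tested. Among all genes, 17.9% fell and 13.0% rose, so the share of members that fell was near that of the genome as a whole. The members' fold changes leaned further down than those of other genes: 49 of 53 were negative, with a median log2 fold change of -1.01 against -0.01 over all genes. The groups did not overlap, with WNT_CPI lower, for 30 members (33.0% of all genes behaved so). Without WNT_CPI replicate 2, or without WNT replicate 1, the count of members called dropped to 4; without E7_CPI replicate 1, which enters only the shared estimate of spread, 8 fell and 1 rose, against 15.6% and 10.9% of all genes.

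The replicate numbers pair the libraries outside E7_CPI, and blocking on that number called more members. In that fit 30 members fell (56.6%) and 1 rose, against 25.8% of all genes that fell and 21.6% that rose. The same counts of members, 30 and 1, were obtained when E7_CPI replicate 1 was left out of the blocked fit. By cluster, 6 of 15 alpha, 13 of 16 beta and 11 of 22 gamma members fell with the block, and 2, 6 and 3 without it.

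The beta cluster contributed 6 of the 11 that fell. PCDHB2, the most counted beta member, stood at 39.9 and 32.2 CPM in WNT and at 21.2 and 11.5 in WNT_CPI, a log2 fold change of -1.14 ± 0.33 (SE, edgeR adjusted p = 0.0228). PCDHB5 stood at 7.69 and 12.8 CPM in WNT and at 2.60 and 3.82 in WNT_CPI (-1.68 ± 0.43, adjusted p = 0.0127). In both genes the 2 WNT libraries were above the 2 WNT_CPI libraries. PCDHB15 went from 8.44 and 4.03 CPM to 2.50 and 1.10 (-1.80 ± 0.60, adjusted p = 0.0428). PCDHB14 went from 3.91 and 2.21 to 1.18 and 0.389 (-1.97 ± 0.59, adjusted p = 0.0272). Replicate 1 was the higher library in both groups for these 2 genes, and the groups again did not overlap. PCDHB11 went from 1.08 and 0.812 CPM to 0.245 and 0.243, a log2 fold change of -1.94 ± 0.52 (adjusted p = 0.0165). PCDHB7 had 16 and 13 counts in WNT and 3 and 0 in WNT_CPI, a ratio of 10.5 (95% interval 3.26 to 53.9, for counting error only). All of these are single-exon genes whose counts cannot draw on shared exons, and the other 10 beta members also had negative log2 fold changes, up to -0.50, without passing the test.

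Among the alpha and gamma members the calls fell on a few variable exons. PCDHA4 stood at 8.04 and 5.99 CPM in WNT and 2.91 and 2.04 in WNT_CPI, a log2 fold change of -1.50 ± 0.35 (edgeR adjusted p = 0.0083). PCDHA6 stood at 3.80 and 5.29, then 2.50 and 1.85 (-1.06 ± 0.29, adjusted p = 0.0181). The WNT libraries of both alpha genes were all above the WNT_CPI libraries. PCDHGB2 had the smallest p of any member: it stood at 2.18 and 1.40 CPM in WNT and at 0.220 and 0.316 in WNT_CPI (-2.73 ± 0.45, adjusted p = 0.00119). PCDHGA9 fell from 30 and 14 counts to 2 and 5 (-2.65 ± 0.55, adjusted p = 0.00441), and PCDHGA8 from 21 and 15 counts to 3 and 8 (-1.74 ± 0.57, adjusted p = 0.0391). The alpha gene with the highest total count, PCDHA10, shows how much replicates could differ: it stood at 16.7 and 7.44 CPM in WNT and 9.94 and 3.67 in WNT_CPI. Its groups overlapped, and its log2 fold change of -0.83 ± 0.70 did not pass the test (adjusted p = 0.419, and 0.0241 with the replicate block).

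**Figure D2:**
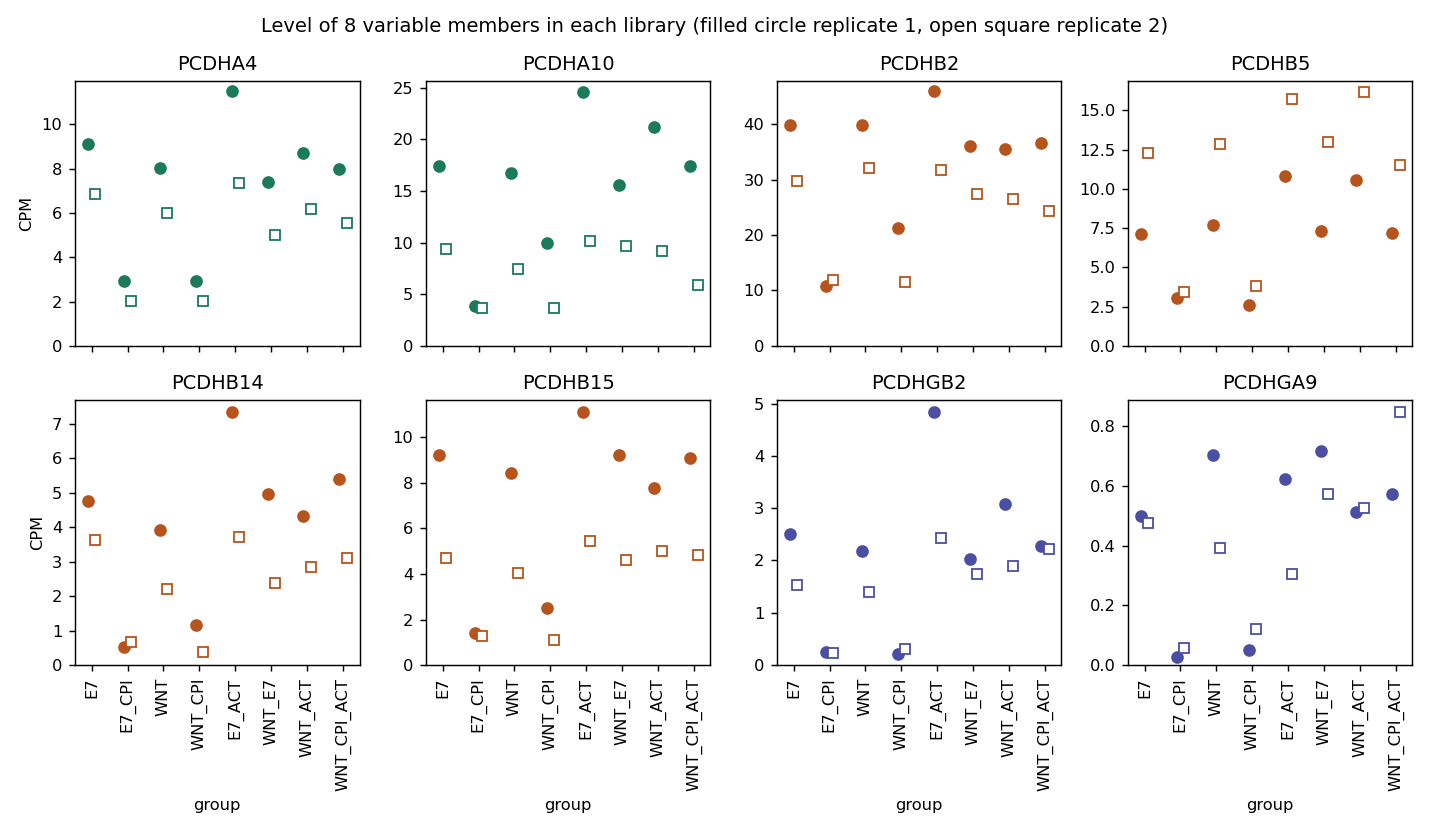
CPM (vertical axis, from 0) of 8 variable members in each library of the 8 groups (horizontal axis), replicate 1 as filled circles and replicate 2 as open squares. In the genes shown other than PCDHA10, both WNT_CPI libraries are below both WNT libraries, and PCDHA10 and PCDHB15 differ strongly between replicates in most groups.

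PCDHAC1, the first C-type gene of the alpha cluster, was the 1 member called higher. It stood at 2.48 and 3.02 CPM in WNT and at 4.87 and 5.74 in WNT_CPI, a log2 fold change of 0.95 ± 0.25 (edgeR adjusted p = 0.0149). Both WNT_CPI libraries were above both WNT libraries, and the gene was called higher both with and without the replicate block. The other 4 C-type genes were not called. PCDHAC2, which is prominent in serotonergic neurons, had a log2 fold change of -0.15 ± 0.30, PCDHGC3 of -0.06 ± 0.28 and PCDHGC4 of -0.61 ± 0.47. PCDHGC5 had 36 and 24 counts in WNT and 15 and 6 in WNT_CPI (-1.55 ± 0.60, adjusted p = 0.0727, and 0.0442 with the block).

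CPI-203 without Wnt3a was compared in E7_CPI against E7. With both E7_CPI libraries, 27 members fell (50.9%, against 17.6% of all genes) and 1 rose (1.89%, against 15.0% of all genes). With E7_CPI replicate 2 alone, 8 fell (15.1%, against 9.3% of all genes) and 1 rose (against 8.24% of all genes), where 17793 genes passed the filter. Without E7_CPI replicate 2, 8 members were called in all, and without E7 replicate 1, 12. With both libraries, 5 of 15 alpha, 14 of 16 beta and 8 of 22 gamma members fell, with median log2 fold changes of -1.05, -2.49 and -1.43 against -0.05 over all genes. With replicate 2 alone the medians were -0.95, -2.54 and -1.22, against -0.05. Both E7 libraries stayed in as controls there. Outside E7_CPI, 14 of 16 beta members were higher in replicate 1 in all 7 groups, so this setting does not remove the difference between replicates. In replicate 2 the beta sum was 65.7 CPM in E7 and 21.6 in E7_CPI.

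PCDHA4, PCDHB2, PCDHB9, PCDHB11, PCDHGA2, PCDHGB2, PCDHGA6 and PCDHGA9 fell with and without E7_CPI replicate 1. PCDHB2 stood at 39.9 and 29.7 CPM in E7 and at 10.8 and 11.9 in E7_CPI, a log2 fold change of -1.61 ± 0.33 (edgeR adjusted p = 0.00408, and 0.0413 with replicate 2 alone). PCDHA4 stood at 9.13 and 6.88, then 2.91 and 2.04 (-1.69 ± 0.35, adjusted p = 0.00434, and 0.0183). PCDHGB2 stood at 2.50 and 1.53, then 0.247 and 0.223 (-3.08 ± 0.47, adjusted p = 0.000683, and 0.0104). Both E7_CPI libraries lay below both E7 libraries in all 3. PCDHB9 had 67 and 33 counts in E7 and 4 and 3 in E7_CPI (-3.58 ± 0.81), and PCDHB11 had 55 and 38, then 8 and 5 (-2.61 ± 0.55). PCDHGA2, PCDHGA6 and PCDHGA9 had 51, 69 and 41 counts over the 2 E7 libraries and 2, 2 and 3 over the 2 E7_CPI libraries. The ratios were 23.4 (95% counting interval 6.15 to 198), 31.6 (8.43 to 266) and 12.5 (4.0 to 63.3).

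The other 19 members that fell in E7_CPI were not called with replicate 2 alone. Those of the alpha cluster were PCDHA1 (-1.99), PCDHA6 (-0.87), PCDHA8 (-2.59) and PCDHA12 (-1.46), on the log2 scale. In the beta cluster PCDHB3, PCDHB4, PCDHB5, PCDHB8, PCDHB10, PCDHB12, PCDHB13, PCDHB14, PCDHB15 and PCDHB16 ranged from -1.58 in PCDHB5 to -3.34 in PCDHB16. PCDHB7 had 43 counts in E7 and 1 in E7_CPI, a ratio of 39.4 (95% counting interval 6.71 to 1590). The gamma members were PCDHGB1 (-2.84), PCDHGA4 (-3.29), PCDHGA5 and PCDHGB3. PCDHGA5 and PCDHGB3 had only 1 and 2 counts in E7_CPI, with ratios of 16.5 (2.61 to 688) and 15.1 (3.87 to 130). Only PCDHB1 and PCDHB6 of the beta cluster were not called with both libraries.

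PCDHAC1 stood at 2.79 and 2.68 CPM in E7 and at 6.34 and 6.11 in E7_CPI, a log2 fold change of 1.19 ± 0.25 (edgeR adjusted p = 0.00455, and 0.0322 with replicate 2 alone). For this gene the 2 E7_CPI libraries were the highest of the 16, followed by the 2 WNT_CPI libraries. The remaining C-type genes were not called: PCDHAC2 -0.03 ± 0.30, PCDHGC3 0.15 ± 0.29, PCDHGC4 0.61 ± 0.48 and PCDHGC5 -0.74 ± 0.62 on the log2 scale.

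Whether Wnt3a altered the response to CPI-203 was tested by the interaction of both agents at 24 h. No member passed the edgeR test, with or without the block or E7_CPI replicate 1, and 2 members had an unadjusted p under 0.05; DESeq2 also called 0. Among all genes 0.0115% were called. The median difference of the members' log2 fold changes was 0.58, with smaller drops beside Wnt3a in this fit, and it was not tested as a whole. It was 0.52 with E7_CPI replicate 2 alone, with both E7 libraries kept as controls. Within replicate 2 the summed level of all members did not drop less beside Wnt3a. That sum was 177 CPM in E7 and 101 in E7_CPI, and 204 in WNT and 110 in WNT_CPI. In replicate 1 it was 213 and 99.8, and 227 and 150.

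**Figure D3:**
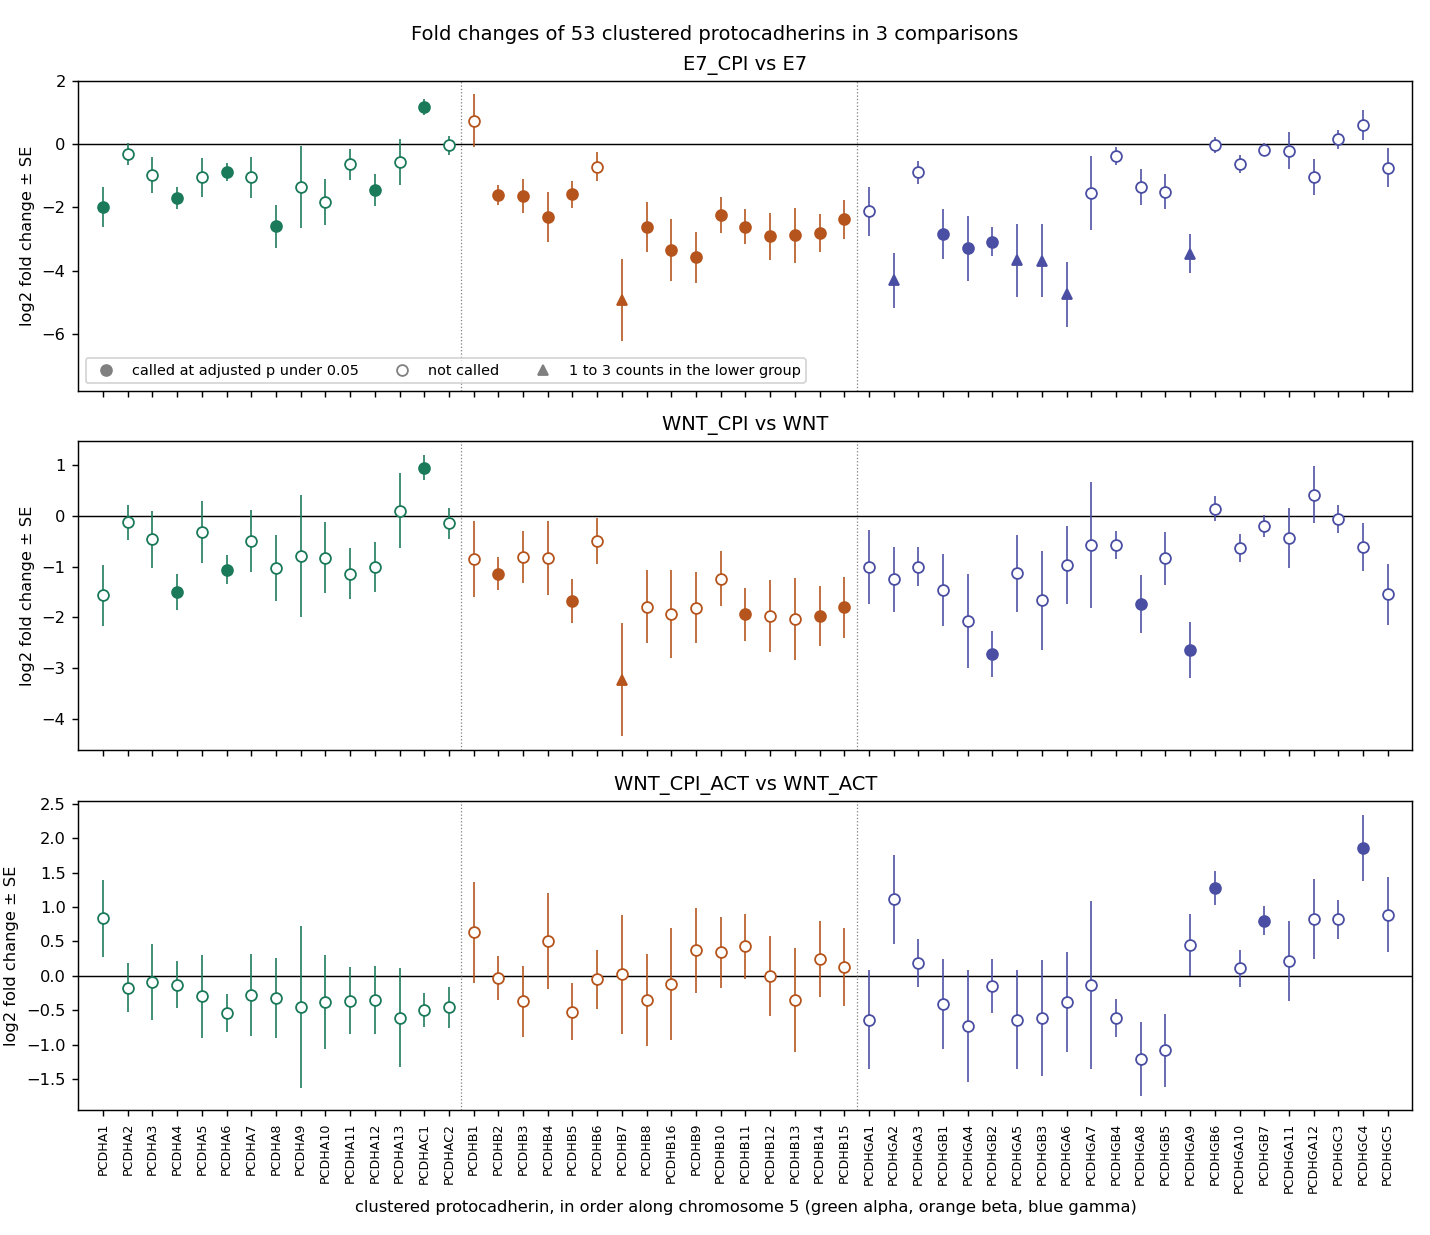
Log2 fold change ± SE (vertical axes) of the 53 members in order along chromosome 5 (horizontal axis) for E7_CPI vs E7, WNT_CPI vs WNT and WNT_CPI_ACT vs WNT_ACT, with called members filled and members with 1 to 3 counts in the lower group as triangles. In the upper 2 panels the beta members and the first gamma members lie lowest and PCDHAC1 is above 0; in the lower panel PCDHGB6, PCDHGB7 and PCDHGC4 are called higher.

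Position along the cluster went with the log2 fold change in the gamma genes, and not only where CPI-203 was given. Over the 22 gamma members in genomic order, Spearman's rho between order and log2 fold change was 0.70 in E7_CPI vs E7 and 0.51 in WNT_CPI vs WNT. Over the 16 beta members it was -0.57 and -0.69, and over the 15 alpha members 0.40 and 0.38. With E7_CPI replicate 2 alone, rho in E7_CPI vs E7 was 0.69 for gamma, -0.56 for beta and 0.43 for alpha. In the comparisons without CPI-203, rho for gamma was 0.57 in WNT vs E7, 0.65 in WNT_ACT vs E7_ACT and 0.19 in WNT_ACT vs WNT_E7. These points share libraries, and the low counts of many early gamma members make their fold changes imprecise. Split after the values had been seen, the 14 gamma genes from PCDHGA1 to PCDHGA9 had a median of -2.96 in E7_CPI vs E7 and -1.19 in WNT_CPI vs WNT. The 8 genes from PCDHGB6 to PCDHGC5 had medians of -0.19 and -0.32. With E7_CPI replicate 2 alone the medians in E7_CPI vs E7 were -2.88 and -0.16. PCDHGB6 and PCDHGB7, the first B-type genes after that point, had log2 fold changes of 0.14 ± 0.25 and -0.20 ± 0.21 in WNT_CPI vs WNT, and their groups overlapped.

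At 48 h WNT_CPI_ACT was compared with WNT_ACT to see what remained after CPI-203. No member fell (4.0% of all genes did), and 3 gamma members rose (5.66%, against 1.9% of all genes). PCDHGB6 stood at 13.4 and 10.6 CPM in WNT_ACT and at 30.9 and 27.6 in WNT_CPI_ACT, a log2 fold change of 1.28 ± 0.25 (edgeR adjusted p = 0.0155). PCDHGB7 stood at 20.4 and 18.8, then 33.6 and 34.6 (0.80 ± 0.21, adjusted p = 0.0497). PCDHGC4, which in mice is needed for the survival of neurons, had 168 and 282 counts in WNT_ACT and 643 and 1157 in WNT_CPI_ACT (1.86 ± 0.48, adjusted p = 0.0468). In all 3 the WNT_CPI_ACT libraries were the 2 highest of the 16.

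Those calls were close to the threshold. Only PCDHGB6 remained without E7_CPI replicate 1, which takes no part in this comparison but adds to the shared estimate of spread; PCDHGB7 then had an adjusted p of 0.0834 and PCDHGC4 of 0.0796. The count also dropped to 1 without WNT_ACT replicate 1 or WNT_CPI_ACT replicate 1, and to 0 without replicate 2 of either group. With the replicate block, 4 rose (PCDHGC3 in addition, with adjusted p = 0.0148) and PCDHGB5 fell (-0.97, adjusted p = 0.0488), against 5.5% of all genes higher and 9.59% lower. PCDHGC3, which has been tied to dendrite branching through Axin1, stood at 18.5 and 24.5 CPM in WNT_ACT and 28.5 and 47.4 in WNT_CPI_ACT (0.82 ± 0.28, adjusted p = 0.132 without the block). PCDHGC5 had 16 and 40 counts, then 48 and 67 (0.89 ± 0.55, adjusted p = 0.46). PCDHAC1 and PCDHAC2 had log2 fold changes of -0.50 ± 0.25 and -0.46 ± 0.30, not called.

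**Figure D4:**
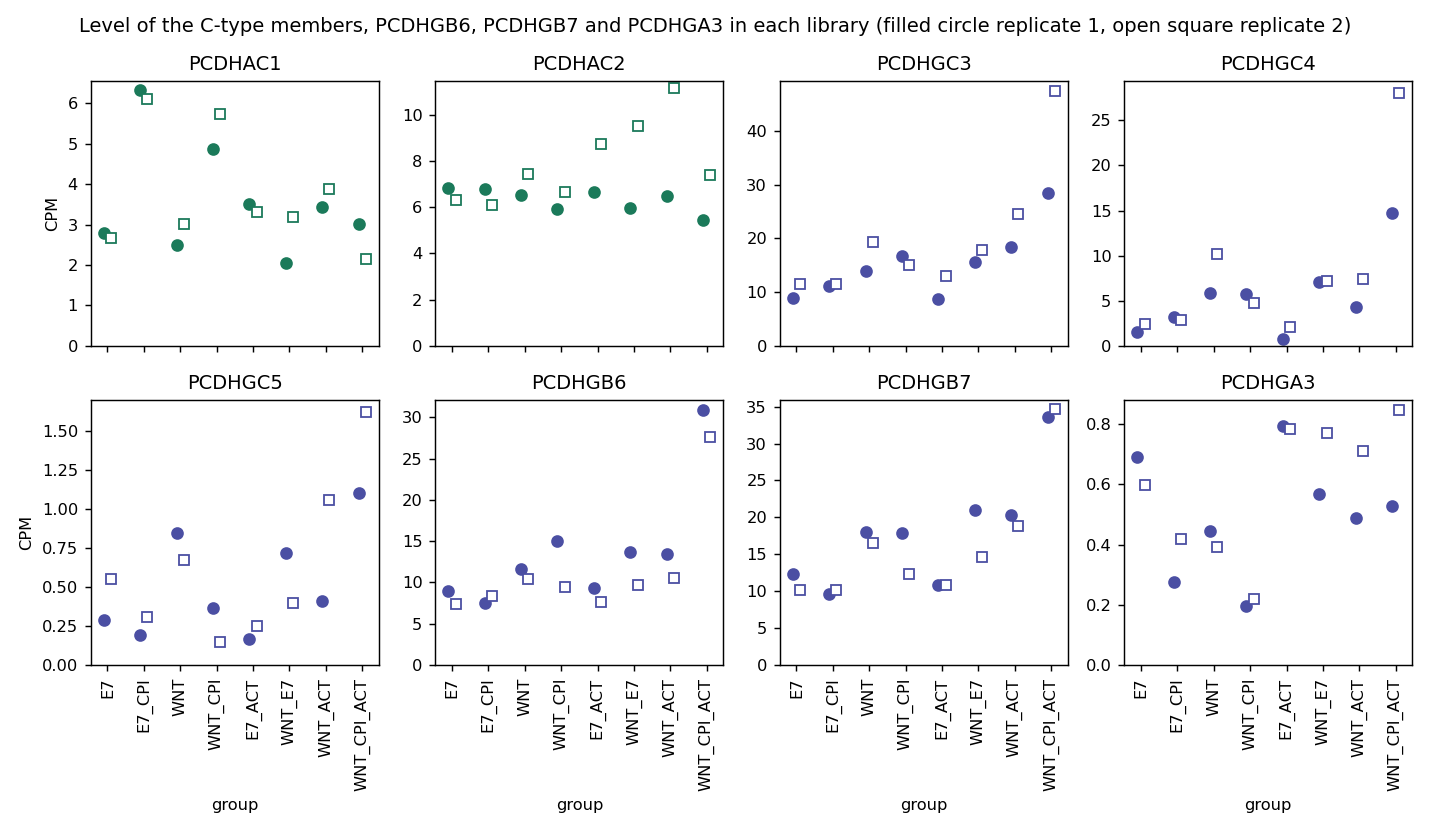
CPM (vertical axis, from 0) of the 5 C-type members and of PCDHGB6, PCDHGB7 and PCDHGA3 in each library of the 8 groups (horizontal axis), replicate 1 as filled circles and replicate 2 as open squares. PCDHAC1 is highest in E7_CPI and WNT_CPI, while PCDHGC3, PCDHGC4, PCDHGC5, PCDHGB6 and PCDHGB7 have their 2 highest libraries in WNT_CPI_ACT.

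From WNT_CPI at 24 h to WNT_CPI_ACT at 48 h, a comparison in which CPI-203 was withdrawn, a day passed and Activin A was added, 16 members rose (30.2%, against 14.9% of all genes) and PCDHAC1 fell (1.89%, against 12.0%). Those that rose were PCDHA1, PCDHA4, PCDHA6, PCDHB5, PCDHB9, PCDHB11, PCDHB14, PCDHB15, PCDHGA3, PCDHGB2, PCDHGA9, PCDHGB6, PCDHGB7, PCDHGC3, PCDHGC4 and PCDHGC5. With the block 29 rose and 1 fell, against 22.4% and 20.4% of all genes, and without WNT_CPI replicate 2 the count called was 6. This comparison shares the WNT_CPI libraries with that of WNT_CPI and WNT, so the values of PCDHA4, PCDHB14 and PCDHGB2, low in WNT_CPI, enter both.

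PCDHGB2 stood at 0.220 and 0.316 CPM in WNT_CPI and at 2.27 and 2.23 in WNT_CPI_ACT, a log2 fold change of 3.05 ± 0.45 (edgeR adjusted p = 0.000752). PCDHB14 stood at 1.18 and 0.389, then 5.38 and 3.10 (2.43 ± 0.59, adjusted p = 0.0115), and PCDHA4 at 2.91 and 2.04, then 7.99 and 5.56 (1.45 ± 0.35, adjusted p = 0.011). The WNT_CPI_ACT levels of these 3 lay next to those of WNT_ACT, which were 3.08 and 1.90, 4.33 and 2.85, and 8.71 and 6.17 CPM. PCDHGC4 stood at 5.73 and 4.74 CPM in WNT_CPI and at 14.7 and 28.0 in WNT_CPI_ACT (2.03 ± 0.48, adjusted p = 0.0101), and PCDHGC5 at 0.367 and 0.146, then 1.10 and 1.62 (2.39 ± 0.59, adjusted p = 0.0126). PCDHAC1 went from 4.87 and 5.74 CPM to 3.02 and 2.15 (-1.03 ± 0.25, adjusted p = 0.0109), and PCDHAC2 was not called (0.03 ± 0.30).

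The interaction of CPI-203 with day, which sets the difference between WNT_CPI_ACT and WNT_ACT against that between WNT_CPI and WNT, was positive for 5 members and negative for 1 (9.43% and 1.89%, against 7.73% and 5.6% of all genes). The first share was near that of all genes. With the replicate block 21 and 1 were called, against 14.9% and 12.0% of all genes, and 11 of the 21 were beta members. The count was 1 without WNT_CPI_ACT replicate 2 or WNT replicate 1, 2 without WNT_CPI replicate 2, and 3 without E7_CPI replicate 1, WNT_ACT replicate 2 or WNT replicate 2.

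Wnt3a by itself gave no call at 24 h. In WNT vs E7, edgeR called 0 members, against 0.605% of all genes; 3 members had an unadjusted p under 0.05, and DESeq2 called 1. The largest difference was that of PCDHGC4, with 64 and 101 counts in E7 and 251 and 362 in WNT (log2 fold change 2.02 ± 0.49, adjusted p = 0.155, and 0.0151 with the block, where 1 member rose, against 1.17% of all genes). PCDHGC3 stood at 8.84 and 11.5 CPM in E7 and 13.9 and 19.3 in WNT (0.71 ± 0.29), and PCDHGC5 at 0.286 and 0.549, then 0.844 and 0.672 (0.86 ± 0.57). PCDHAC1 and PCDHAC2 had log2 fold changes of 0.01 ± 0.25 and 0.08 ± 0.30.

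The same member stood out at 48 h. In WNT_ACT vs E7_ACT, PCDHGC4 rose from 32 and 82 counts to 168 and 282 (log2 fold change 2.04 ± 0.50, edgeR adjusted p = 0.0493), as the 1 member called (1.89%, against 2.48% of all genes). It lost that call without E7_CPI replicate 1 (adjusted p = 0.0852), without E7_ACT replicate 1 and without either WNT_ACT library. With the block 3 members rose, PCDHGC4, PCDHGC3 and PCDHGB7, and PCDHGA2 and PCDHGA6 fell, against 5.17% and 3.53% of all genes. PCDHGC5 and PCDHAC2 had log2 fold changes of 1.78 ± 0.61 and 0.20 ± 0.30, and PCDHAC1 of 0.10 ± 0.25, none called. The libraries of the 5 groups given Wnt3a each held 168 or more PCDHGC4 counts, and those of E7, E7_CPI and E7_ACT held 116 or fewer.

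Activin A after Wnt3a changed no member by the test. In WNT_ACT vs WNT_E7, edgeR called 0 of 53 members, against 0.882% of all genes; 0 had an unadjusted p under 0.05 and DESeq2 called 0. The C-type genes had log2 fold changes from -0.29 ± 0.47 in PCDHGC4 to 0.48 ± 0.25 in PCDHAC1, with PCDHAC2 at 0.19 ± 0.30, PCDHGC3 at 0.36 ± 0.28 and PCDHGC5 at 0.39 ± 0.56.

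Genes known to act on the clusters were read from a list of 26 regulators, all tested. In WNT_CPI vs WNT, 2 rose and 6 fell, with a median log2 fold change of -0.11 against -0.01 over all genes, of which 13.0% rose and 17.9% fell. DNMT3A and DNMT3B, the de novo DNA methyltransferases, fell by 1.68 and 0.98 on the log2 scale (SE 0.21 and 0.14), and SETDB1, a histone methyltransferase that silences the clusters, fell by 0.57 (SE 0.10). CBX5, a heterochromatin protein, and DNMT1, the maintenance methyltransferase, rose by 0.78 and 0.44 (SE 0.11 for each). In E7_CPI vs E7, 2 rose and 5 fell with both libraries, and fewer were called with E7_CPI replicate 2 alone, as over all genes. Over all genes, 15.0% rose and 17.6% fell in E7_CPI vs E7 with both libraries. The part of these regulators in the members' values was not tested.

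Of 20 partners and processing enzymes of the protocadherin proteins, 2 rose and 1 fell in WNT_CPI vs WNT, against 13.0% and 17.9% of all genes. The kinase FYN rose by 1.38 on the log2 scale (SE 0.17), while ABI2, of the WAVE complex, fell by 0.38 (SE 0.11). In E7_CPI vs E7, 7 rose and 1 fell, against 15.0% and 17.6% of all genes, but with E7_CPI replicate 2 alone 2 rose and 0 fell, against 8.24% and 9.3%. Over all genes, 13.0% rose and 17.9% fell in WNT_CPI vs WNT, and 15.0% and 17.6% in E7_CPI vs E7. Of the 18 nonclustered protocadherins and related large cadherins tested, 3 were higher and 5 lower in WNT_CPI vs WNT. In E7_CPI vs E7, 4 were higher and 2 lower. Without E7_CPI replicate 1 fewer were called in both comparisons, as over all genes. In WNT_CPI vs WNT, PCDH19 (2.69 ± 0.25) and PCDH17 (3.15 ± 0.74) rose and PCDH1 (-3.15 ± 0.47) and PCDH10 (-3.55 ± 0.77) fell. FAT2 rose by 1.03 (SE 0.27) in that comparison.

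Of 18 neighbours of the clusters tested, 4 rose and 2 fell in WNT_CPI vs WNT (13.0% and 17.9% of all genes did), with a median log2 fold change of 0.19. HARS1, the histidyl-tRNA synthetase gene, rose by 0.64 (SE 0.09), DIAPH1 by 0.74 (SE 0.14) and ZMAT2 by 0.48 (SE 0.12), and ARAP3 fell by 1.30 (SE 0.21). The other that fell was PCDH1, which stands in both lists. Over all genes, 15.0% rose and 17.6% fell in E7_CPI vs E7 with both libraries. In E7_CPI vs E7 the counts with both libraries were again 4 and 2, and fewer were called with E7_CPI replicate 2 alone, as over all genes.

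Markers of cell type moved with CPI-203 as well. In WNT_CPI vs WNT, 5 of 8 pluripotency markers fell (NANOG, TDGF1, DPPA4, POU5F1 and SALL4) and none rose. Of all genes, 17.9% fell and 13.0% rose in that comparison. The 12 neuron markers summed to 254.3 to 607.0 CPM in E7 and WNT and to 1396 to 1705 in E7_CPI and WNT_CPI, and to 282.4 to 728.6 in the 48 h groups. Most of that sum was TUBB3, at 1270 and 1180 CPM in E7_CPI and 1210 and 1450 in WNT_CPI. TUBB3 stood at 151 and 250 CPM in E7 and 304 and 477 in WNT. Of the 9 neuron markers tested, TUBB3, STMN2, MAP2 and SNAP25 rose and DCX fell in WNT_CPI vs WNT, and 1 to 3 of the 12 were at 0 in each library. The proneural factors NEUROD1 and NEUROG2 had no more than 2 and 9 counts in any library. Among the neural progenitor markers, PAX6 and HES5 had no more than 14 and 5 counts, while NES, an intermediate filament gene, had 10599 or more in every library. Of the fibroblast markers, DCN was at 0 in all 16 libraries, while COL1A1, COL1A2 and THY1 had 1635, 2163 and 6021 or more in each. The neural progenitor markers summed to 307.8 to 393.5 CPM in E7 and WNT and 588.7 to 770.7 in the CPI-203 groups at 24 h. Most of that sum was NES, at 10599 to 30981 counts over all libraries, and no other marker of that list passed 4400 counts in any library. In WNT_CPI vs WNT, 3 of the 7 tested were higher and 1 lower. In E7_CPI vs E7 with both libraries, NES and LHX2 were higher and FABP7 lower. The mesendoderm markers summed to 1463 and 234.5 in WNT_ACT, 255.9 and 36.31 in WNT_CPI_ACT and no more than 45.14 elsewhere, and 2 of 4 fibroblast markers tested fell in WNT_CPI vs WNT. The part of these shifts in the protocadherin levels was not tested.

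A last pattern concerned the replicates. Over the 7 groups other than E7_CPI, 28 members were higher in replicate 1 than in replicate 2 in every group (52.8%, against 22.6% of all genes), and 4 were lower in every group (7.55%, against 22.8%). In the beta cluster these were 14 and 1 of 16. PCDHA9 had a median log2 ratio of replicate 1 over replicate 2 of 1.89 (1.21 to 2.77 over the groups), PCDHA10 of 1.20 and PCDHB16 of 1.28. PCDHA11, PCDHB5, PCDHGA10 and PCDHGA11 were the 4 that went the other way, PCDHA11 with a median of -0.75 (-1.02 to -0.62) and PCDHGA11 with -0.81. None of the 5 C-type genes kept 1 direction in all 7 groups.

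Neighbouring alpha genes thus differed in sign between the replicates. PCDHA10 had 712 and 266 counts in the WNT libraries while PCDHA11 had 302 and 516. In E7_CPI the log2 ratios of PCDHA9, PCDHA10, PCDHA11 and PCDHGA11 were 0.09, 0.09, -0.05 and 0.00. Some other members had larger ratios in E7_CPI. The ratio was 0.49 for PCDHA4 (106 and 73 counts), as in the median of the other groups. Those of PCDHB16 (0.77, from 13 and 6 counts) and PCDHGA4 (0.71, from 4 and 1 counts) rest on few counts. Of the 28 members higher in replicate 1 in all 7 other groups, 16 were above 0 in E7_CPI and 10 below. Their median ratio in E7_CPI was 0.09, and 22 of them lay below the lowest of the other 7 groups.

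**Figure D5:**
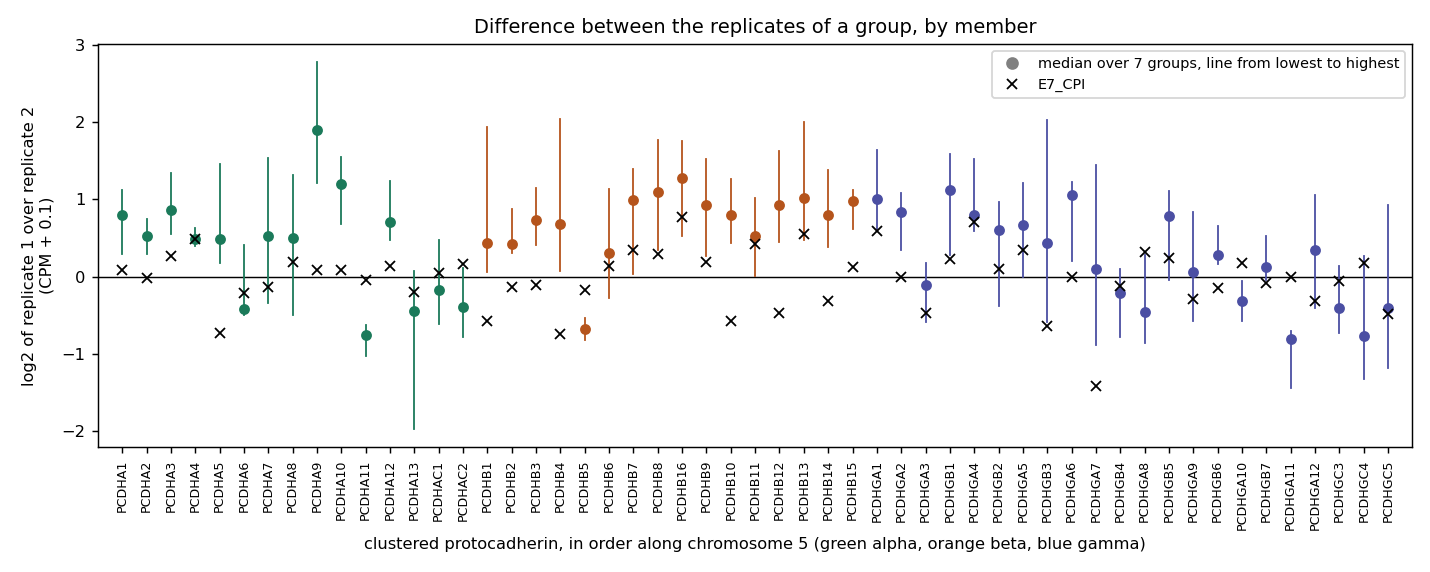
Log2 ratio of replicate 1 over replicate 2 (CPM with a pseudocount of 0.1, vertical axis) for the 53 members in order along chromosome 5 (horizontal axis). Points are medians over the 7 groups other than E7_CPI, lines run from the lowest to the highest group, and crosses are E7_CPI; most beta members lie above 0, PCDHA11 and PCDHB5 lie below 0 in all 7 groups, and the E7_CPI crosses of PCDHA9 and PCDHA10 lie at 0.09.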

How the data were processed

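Raw counts per gene were deposited by the authors as 1 table per replicate number. The submitters' processing notes list featureCounts and DESeq2 among their tools; the aligner and genome build for RNA are not given in the sources used here. The E7_CPI column of replicate 1 was lined up with the genes of the replicate 2 table (its highest absolute Spearman rho with any library was 0.0071 as deposited and 0.986 as read, with 12 cells empty).

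The fit used edgeR 4.0.16 on R 4.3.3 (limma 3.58.1) and all 16 libraries: filterByExpr by group, TMM scaling, 1 quasi-likelihood model (8 groups, 8 residual degrees of freedom), 2-sided F-tests, and Benjamini-Hochberg adjustment over all 17355 genes tested, with calls at an adjusted p under 0.05. SE is the absolute log2 fold change divided by the square root of F. Counting intervals are 95% exact binomial intervals and cover counting error only. The fit was also run on simulated counts that had no replicate effect and changes only in well-counted genes. That run does not cover members with few counts.

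Replicate numbers pair the libraries outside E7_CPI: deviations of same-numbered libraries correlated at r = 0.473 to 0.872 in all 21 pairs of the other 7 groups, and at -0.119 to -0.0474 with E7_CPI. The fit has no replicate term; blocked values stand beside results they change. Blocking took the common biological coefficient of variation from 0.271 to 0.147. DESeq2 1.42.0, other scalings, filters and left-out libraries were alternatives.

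The members and gene lists were chosen with earlier results of these data known. Named genes are the members called (at most 20 a comparison, except that all 27 that fell in E7_CPI vs E7 are named, beyond that rule and after their values were seen), the C-type genes, the most counted member of each cluster, and at most 5 genes of each other list called in WNT_CPI vs WNT. PCDHGB6, PCDHGB7, and members whose low counts or replicate gaps are described, were also named after their values were seen. Single values of some list genes are not reported here. The 14 ATAC libraries were not analysed here.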

Additional observations from a re-analysis of the deposited data

Results flagged for a closer look

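The effect of CPI-203 given with Wnt3a differed between 24 h and 48 h, by the interaction test in edgeR, for 6 members. The difference of log2 fold changes (WNT_CPI_ACT vs WNT_ACT less WNT_CPI vs WNT) was 3.09 for PCDHGA9 (adjusted p = 0.0169), 2.58 for PCDHGB2 (0.0167), 2.47 for PCDHGC4 (0.0335), 2.37 for PCDHB11 (0.0484) and 1.00 for PCDHGB7 (0.0485). It was -1.44 for PCDHAC1 (0.0217). PCDHGB2, PCDHGA9 and PCDHB11 had fallen at 24 h and were not called at 48 h, PCDHGC4 and PCDHGB7 had not been called at 24 h and were higher at 48 h, and PCDHAC1 had risen at 24 h. Without E7_CPI replicate 1 the adjusted p was 0.0549 for PCDHGC4, 0.0682 for PCDHB11 and 0.0757 for PCDHGB7. CPI-203 was given on day 1 only, and these 48 h groups also had Activin A on day 2. The withdrawal of CPI-203, the presence of Activin A and the passing of a day therefore cannot be told apart.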

How the results depend on the processing

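With 2 libraries a group and few counts a member, power was low, and most counts of called members moved with the setting. The cause was not tested. The share of all genes called moved too: in WNT_CPI vs WNT, 17.9% fell without the replicate block and 25.8% with it. Where no share of all genes stands beside a count below, the count shows only how the calls depended on the setting. With the replicate block, the members called were 1 in WNT vs E7, 35 in E7_CPI vs E7 (1 higher and 34 lower, against 24.6% and 26.2% of all genes; the numbers do not pair these libraries), 31 in WNT_CPI vs WNT, 5 in WNT_ACT vs E7_ACT, 5 in WNT_CPI_ACT vs WNT_ACT, 30 in WNT_CPI_ACT vs WNT_CPI and 22 in the CPI-203 by day interaction. With the block and without E7_CPI replicate 1, a setting chosen after seeing the data, they were 1, 31, 31, 7, 6, 33 and 24. DESeq2 called 1 in WNT vs E7, 3 in WNT_ACT vs E7_ACT and 11 in the day interaction. Fits of the compared groups alone called 4 in WNT_CPI vs WNT, 0 in WNT_ACT vs E7_ACT, 0 in WNT_CPI_ACT vs WNT_ACT, 4 in WNT_CPI_ACT vs WNT_CPI and 0 in the day interaction. Requiring 10 counts in 8 libraries gave 0 in WNT_ACT vs E7_ACT, and no filter gave 1 in WNT_CPI_ACT vs WNT_ACT. Leaving out 1 library at a time gave 8 to 26 in E7_CPI vs E7, 4 to 15 in WNT_CPI vs WNT, 0 to 1 in WNT_ACT vs E7_ACT, 0 to 1 in WNT_CPI_ACT vs WNT_ACT, 6 to 20 in WNT_CPI_ACT vs WNT_CPI, 1 to 4 in the day interaction, and 0 to 0 in the other 3 comparisons; where it leaves a group 1 library, that library takes its spread from the other groups. No value of a called member changed sign under any setting run. Scaling by DESeq2 size factors or by library totals alone moved no count by over 1.5 times.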

Other observations

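The split of protocadherin counts among the clusters differed between groups. The beta cluster held 41.9% and 37.1% of the members' counts in the E7 libraries and 19.9% and 21.3% in E7_CPI, while the gamma cluster held 26.0% and 30.2%, then 42.6% and 43.5%. In WNT_CPI_ACT the gamma cluster held 45.6% and 61.4%, against 34.6% and 40.3% in WNT_ACT, and neither pair of groups overlapped. These shares are of reads, not of transcripts, and they were not tested. The library with the highest alpha and beta sums was E7_ACT replicate 1, at 87.8 and 121 CPM, while replicate 2 of that group had 68.7 and 81.3.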
